A study of Mus musculus with 4 samples.

Results

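DNA replication and S phase genes were followed in mouse neural stem cells (NSCs), the dividing cells from which neurons and glia arise, differentiated with or without a hairpin that targets the long non-coding RNA lnc-OPC. The 45 members were the rows of the deposited gene count table whose symbol belongs to a list of genes for origin licensing, the replication fork, nucleotide supply and the G1/S transition. All 45 were found among the 22608 genes of the table, and all 45 passed the filter on low counts that left 14090 genes for testing. The list was not chosen from measured values, but it was drawn up with earlier results of these data known.

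Control cultures carried a lentiviral short hairpin RNA (shRNA) against luciferase, an insect enzyme, and knockdown cultures carried an shRNA against lnc-OPC, with 2 libraries in each group. The table's column names show the same lnc-OPC hairpin in both knockdown libraries. Another hairpin that the authors report as effective is not among them. Loss of lnc-OPC and other effects of the hairpin used therefore cannot be told apart here. All cultures came from cerebral cortex labelled CD-1, were expanded with EGF and FGF at 20 ng/ml each, selected with puromycin, and then differentiated toward oligodendrocyte precursor cells (OPCs) for 3 days with 20 ng/ml of the cytokine CNTF and 40 ng/ml of the thyroid hormone T3. The authors bought their NSCs, which came from the cortex of CD-1 embryos. The labels call the repeats biological replicates but do not say whether they came from separate mice. Every level is that of a whole culture, in which more cells in S phase and more RNA per cell cannot be told apart. With a BrdU cell proliferation assay, the authors found no significant change in the proliferation of selected NSCs under knockdown. Their methods name no differentiation step for that assay, whereas these libraries came after 3 days of differentiation.

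Before a cell copies its DNA, the origin recognition complex, Cdc6 and Cdt1 load the ring-shaped MCM helicase onto origins, a step called licensing. In S phase the helicase is switched on by Cdc45 and the GINS complex, polymerases copy both strands behind it, and ribonucleotide reductase supplies the building blocks. Cyclin E and the E2F transcription factors open this programme, and many replication genes are known E2F targets. Cycling precursors express these genes, and cells that leave the cycle to become myelin-forming oligodendrocytes shut them down.

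The depth was 49584378 and 46144779 reads in genes for the controls and 49663413 and 50098577 for the knockdown. The count table held no row under the name lnc-OPC, so the depletion of the target was not checked here. The authors report by qPCR that the hairpin named in the columns lowered lnc-OPC in selected NSCs. Markers of the oligodendrocyte lineage were present and lower in the knockdown. The summed level of 15 oligodendrocyte genes was 1844 and 1673 counts per 1000000 counts in genes (CPM) in the controls and 956 and 899 CPM in the knockdown libraries, and 14 of the 15 fell. Of 14 OPC genes, 12 fell (85.7%) and 0 rose. Genes are counted in this paragraph at an edgeR adjusted p under 0.05, at which 23.5% of all 14090 genes tested rose and 23.3% fell. Astrocyte genes summed to 7650 and 7752 CPM in the controls and 10791 and 10950 CPM in the knockdown libraries, with Gfap, the astrocyte filament gene, rising 3.20-fold (edgeR adjusted p = 2.95e-12). Of 14 astrocyte genes tested, 9 rose and 3 fell, the last being Aqp4, Sox9 and Cbs, and without Gfap the sums were 6950 and 6979 CPM against 8490 and 8535 CPM. NSC genes summed to 13860 and 13715 CPM against 16515 and 16833 CPM, with 6 of 14 rising and 4 falling (2 falling without control replicate 2). The higher sum came from Vim, an intermediate filament gene, since the other 13 genes summed to 5262 and 5077 CPM in the controls and 4944 and 4832 CPM in the knockdown libraries. Among 11 endothelial and mural genes, 5 were tested and 4 of these fell, and the summed level went from 763 and 755 CPM to 391 and 389 CPM. The endothelial genes Cdh5 and Cldn5 had no read in any library. Most of the sum came from Acta2, at 357 and 335 CPM against 133 and 135 CPM, and Notch3, at 280 and 298 CPM against 178 and 175 CPM. Cspg4, the tested gene that did not fall, is also on the OPC list. Of 14 neuron genes, 11 were tested, 4 rose (36.4%) and 2 fell (18.2%). The neuron sum was 318 and 337 CPM in the controls against 296 and 294 CPM in the knockdown libraries. Microglia genes summed to between 1.21 and 1.90 CPM in every library, and 6 of the 11, among them Cx3cr1, Tmem119 and C1qa, had no read in any library. The part that these shifts in cell type markers play in the replication genes was not tested.

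Promoters are shown because many replication genes are known E2F targets and 23 of the members were called higher. RefSeq promoter sequences (build GRCm38.p6, 250 bases before to 50 bases after each gene's start) were matched by symbol to 37 of the 45 members. They were searched on both strands for an E2F word, any of TTTCCCGC, TTTCGCGC, TTTGCCGC and TTTGGCGC, and for the CCAAT box, CCAAT. The E2F word was found in 14 of the 37 members (37.8%), against 2.61% of 27025 genes with a promoter in the table and 4.62% of the 9920 of them tested here. The CCAAT box was found in 24 of the 37 (64.9%), against 41.1% of genes with a promoter and 43.2% of those tested here. Another word, TTTGAA, known as an element of many mitotic gene promoters, was in 5 of the 37 (13.5%), against 20.2% of genes with a promoter and 13.9% of those tested here. A match is a description of the letters in this window and not a mapped binding site.

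The promoters of the 4 called members with the smallest p-values that had a sequence are given 5′ to 3′ on the gene's strand, with CCAAT boxes in capitals. None of the 4 held the E2F word in this window, and they held 1, 1, 2 and 2 CCAAT boxes in the order shown.

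Pcna, chr2:132253131-132253430, minus strand: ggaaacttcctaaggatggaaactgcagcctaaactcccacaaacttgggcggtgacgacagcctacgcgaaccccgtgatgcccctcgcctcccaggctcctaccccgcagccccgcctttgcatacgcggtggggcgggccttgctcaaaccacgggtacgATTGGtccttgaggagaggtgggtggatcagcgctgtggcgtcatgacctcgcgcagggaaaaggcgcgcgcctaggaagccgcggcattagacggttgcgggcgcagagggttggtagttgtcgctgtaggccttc
Rrm2, chr12:24708004-24708303, plus strand: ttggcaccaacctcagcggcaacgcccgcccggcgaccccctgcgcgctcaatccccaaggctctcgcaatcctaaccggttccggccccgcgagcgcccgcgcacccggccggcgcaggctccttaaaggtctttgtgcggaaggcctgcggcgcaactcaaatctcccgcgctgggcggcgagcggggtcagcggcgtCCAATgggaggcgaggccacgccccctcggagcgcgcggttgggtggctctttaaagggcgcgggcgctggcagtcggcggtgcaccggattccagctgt
Rrm1, chr7:102441445-102441744, plus strand: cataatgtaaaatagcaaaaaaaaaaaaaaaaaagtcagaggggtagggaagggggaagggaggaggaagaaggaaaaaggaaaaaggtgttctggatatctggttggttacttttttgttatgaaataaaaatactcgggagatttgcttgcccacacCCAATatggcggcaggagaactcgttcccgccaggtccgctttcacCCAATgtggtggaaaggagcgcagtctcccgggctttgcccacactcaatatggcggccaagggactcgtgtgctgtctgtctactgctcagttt
Rpa1, chr11:75348334-75348633, minus strand: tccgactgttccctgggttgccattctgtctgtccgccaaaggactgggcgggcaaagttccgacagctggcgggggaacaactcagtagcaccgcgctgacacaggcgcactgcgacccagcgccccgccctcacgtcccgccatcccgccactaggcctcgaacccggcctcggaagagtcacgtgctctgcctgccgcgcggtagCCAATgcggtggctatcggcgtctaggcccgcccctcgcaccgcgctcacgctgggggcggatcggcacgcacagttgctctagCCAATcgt

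Several licensing genes held the E2F word, and windows of 28 bases around a match are given for 6 of them, with the E2F words, and a CCAAT box where it falls in the window, in capitals. In Mcm5 and Mcm6 a pair of words on opposite strands overlapped, and in Mcm7 the word overlapped a CCAAT box.

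Orc1, chr4:108579417-108579444, plus strand: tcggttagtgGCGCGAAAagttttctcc
Cdc6, chr11:98908003-98908030, plus strand: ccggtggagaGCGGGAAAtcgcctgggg
Mcm3, chr1:20820276-20820303, minus strand: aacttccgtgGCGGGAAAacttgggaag
Mcm5, chr8:75109346-75109373, plus strand: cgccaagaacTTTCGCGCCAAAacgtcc
Mcm6, chr1:128359798-128359825, minus strand: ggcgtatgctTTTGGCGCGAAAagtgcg
Mcm7, chr5:138171850-138171877, minus strand: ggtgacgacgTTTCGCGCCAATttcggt

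Members with the word were found among those that rose, fell and were not called. Among members with a promoter sequence, 5 of 16 called higher held the E2F word (31.2%) and 8 of 20 not called held it (40.0%). Of the 6 genes shown above, which all carried it, Mcm3 and Cdc6 rose, Mcm6 fell, and Mcm5, Mcm7 and Orc1 were not called. Only 16 of the 23 members called higher had a promoter sequence, and inexact matches were not searched. Whether E2F acts on these genes was not tested. Over all tested genes with a promoter sequence, 23.8% of 458 genes with the word and 23.8% of 9462 genes without it were called higher.

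The 45 members were slightly higher in the knockdown as a group, and no member changed by as much as 2-fold. By the quasi-likelihood test of edgeR, with a call at an adjusted p under 0.05, 23 of the 45 members rose (51.1%), 1 fell (2.22%) and 21 were not called. Over all 14090 genes tested, 46.7% were called, 23.5% higher and 23.3% lower, so the share of members called higher was above the background and the share called lower was below it. Calls over 2-fold made up 3.82% of all genes and 0 of the members. The 23 higher members rose by 1.13-fold to 1.58-fold, with a median of 1.21-fold, and 1 of them, Tk1, passed 1.5-fold. The median log2 change of the 45 members was 0.20, against 0.0020 over all genes tested, and 38 of the 45 fitted changes were positive.

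Both knockdown libraries lay above both controls for 30 members and below both for 5, and the groups overlapped for 10. Over all genes tested, 72.6% did not overlap, 36.4% with the knockdown higher and 36.2% with the knockdown lower. Summed over the 45 members, the level was 1021 and 993 CPM in the controls and 1150 and 1090 CPM in the knockdown libraries. The replicates themselves were not level. Knockdown replicate 1 was above knockdown replicate 2 for 36 of the 45 members (80.0%), against 50.6% of all genes, and control replicate 1 was above control replicate 2 for 30 of the 45 (66.7%), against 50.05% of all genes. The median log2 ratio of a knockdown to a control library over the members ran from 0.14, for knockdown replicate 2 against control replicate 1, to 0.26, for knockdown replicate 1 against control replicate 2.

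The count of calls depended on which libraries and which test were used. Without knockdown replicate 1, 9 members were called higher and 2 lower, and 20.0% of members and 20.0% of all genes were then called higher. Without knockdown replicate 2 the counts were 21 and 1, with 46.7% of members and 19.7% of all genes higher. Without control replicate 1 or control replicate 2, 12 and 10 members were called higher and 0 and 1 lower, against 17.2% and 17.1% of all genes called higher. DESeq2 called 10 members higher (22.2%) and 0 lower, against 18.5% of all genes called higher. With raw totals and no scaling factor, 15 members were called higher and 3 lower, while all genes split into 2677 higher and 3964 lower in place of 3309 and 3276. Of the 24 called members, 7 kept their call in all 10 alternative fits, namely Mcm4, Pcna, Rfc2, Rpa1, Rrm1, Rrm2 and Chaf1a.

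**Figure D1:**
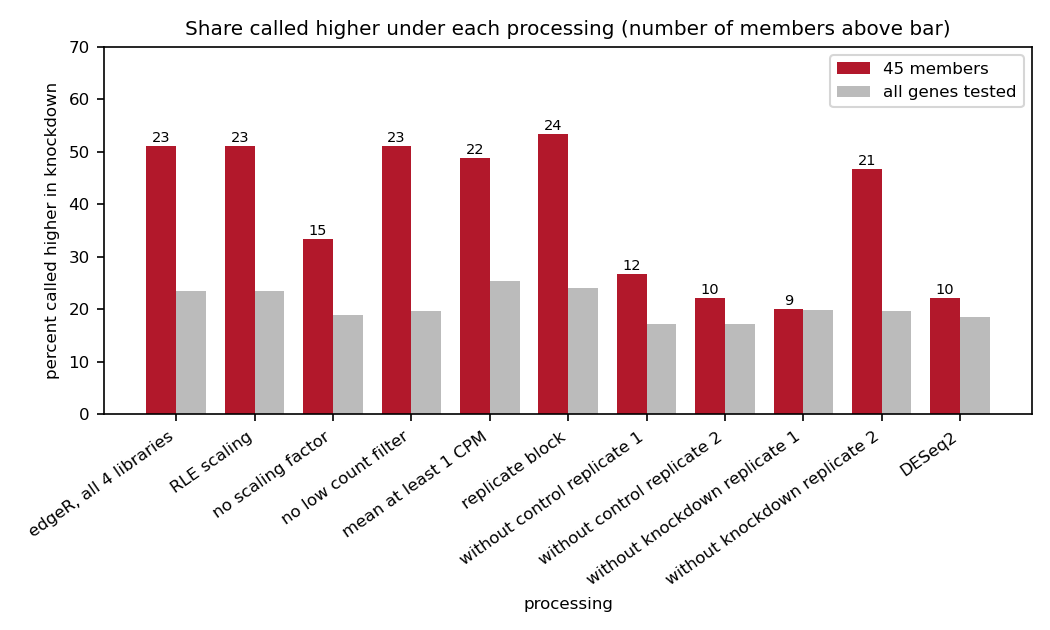
Percent of genes called higher in the knockdown (vertical axis) under each processing (horizontal axis), for the 45 members (red, with the number of members above the bar) and for all genes tested (grey). The members' share runs from 20.0% without knockdown replicate 1, level with all genes, to 53.3% with a replicate block.

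**Figure D2:**
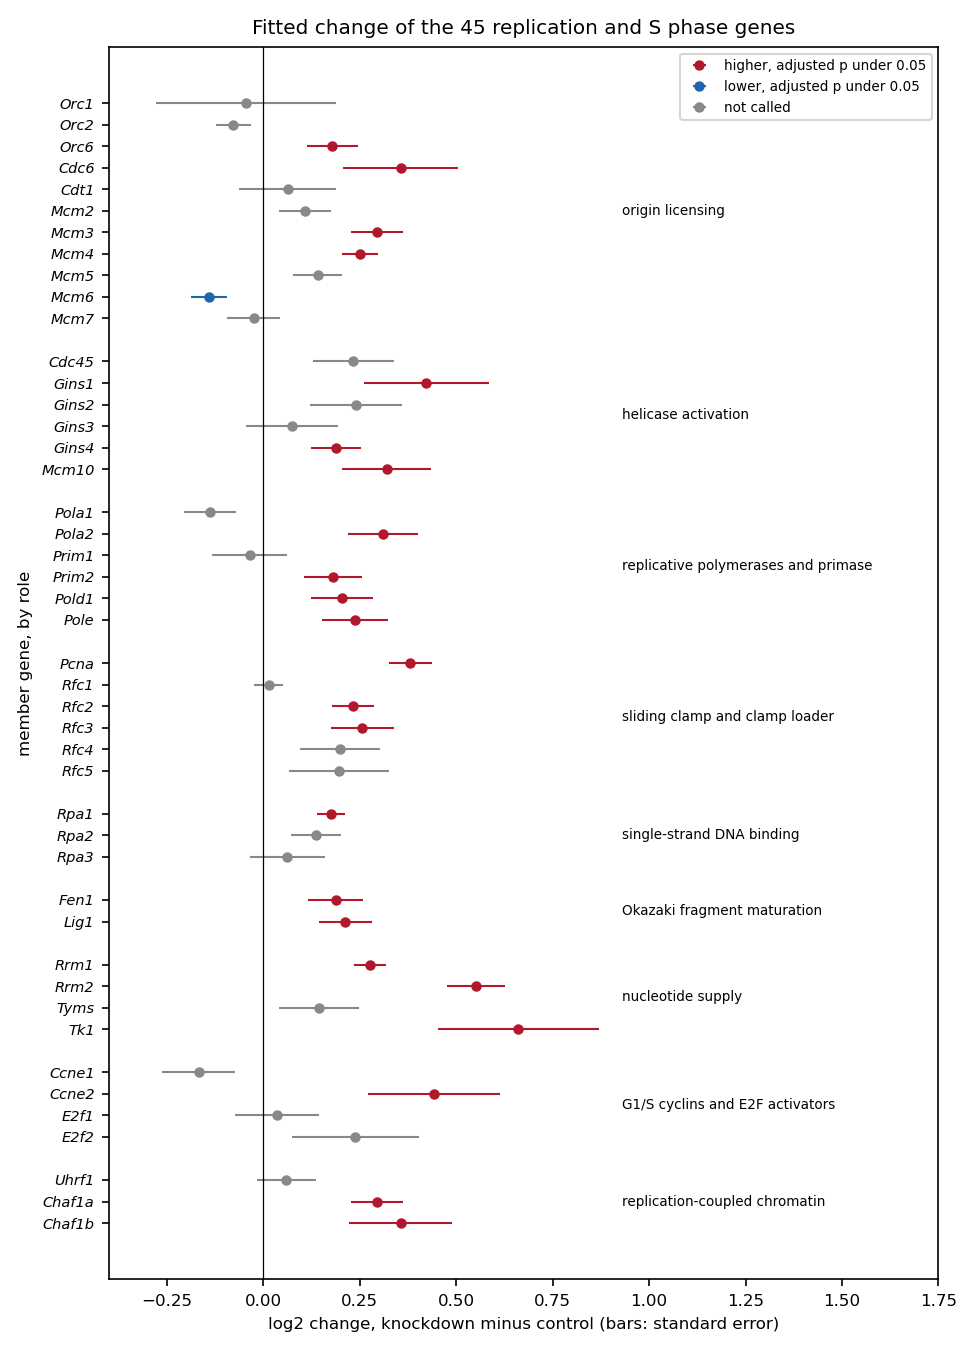
Fitted log2 change of each member, knockdown minus control (horizontal axis, bars are standard errors), ordered by role (vertical axis); red points were called higher, blue lower, grey not called. Fitted changes run from -0.17 for Ccne1 to 0.66 for Tk1, and Mcm6 is the called decrease.

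Genes of nucleotide supply showed the largest changes, with 3 of 4 rising (75.0%, against 23.5% of all genes) and a median log2 change of 0.41. Rrm2, the regulated small subunit of ribonucleotide reductase, stood at 22.8 and 23.2 CPM in the controls and 37.2 and 30.2 CPM in the knockdown libraries. The groups did not overlap, and the rise was 1.47-fold (log2 change 0.55, SE 0.08, edgeR adjusted p = 1.54e-06). Rrm1, which encodes the large catalytic subunit, was at 89.5 and 86.5 CPM against 112 and 101 CPM, a rise of 1.21-fold (log2 change 0.28, SE 0.04, edgeR adjusted p = 2.3e-06). In both subunit genes knockdown replicate 1 was the higher library. Tk1, the thymidine kinase of the salvage pathway, was the least abundant of the 4 at 1.65 and 2.18 CPM against 3.24 and 2.81 CPM, with a rise of 1.58-fold (log2 change 0.66, SE 0.21, edgeR adjusted p = 0.00941). Leaving out control replicate 1 gave Tk1 an adjusted p of 0.144, and leaving out knockdown replicate 1 gave 0.0811. Tyms, thymidylate synthase, was at 9.80 and 8.56 CPM against 10.2 CPM in both knockdown libraries and was not called (log2 change 0.14, 95% interval -0.07 to 0.35, edgeR adjusted p = 0.262). A processed copy of this gene, Tyms-ps, had 44 and 44 reads in the controls and 67 and 48 in the knockdown libraries, beside 492, 400, 498 and 502 for Tyms, and reads shared by the pair could not be assigned.

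The sliding clamp gene rose and its loader genes did so in part. Pcna encodes the ring that holds polymerases on DNA. It went from 32.5 and 30.7 CPM in the controls to 42.8 and 39.6 CPM in the knockdown libraries, with no overlap, a rise of 1.302-fold (log2 change 0.38, SE 0.06, edgeR adjusted p = 1.06e-06). Rfc2 to Rfc5 encode the small subunits of the clamp loader, which opens the ring. For all 4 of them both knockdown libraries were above both controls, and 2 were called. Rfc2 was at 33.8 and 33.7 CPM against 39.8 and 39.5 CPM, 1.17-fold higher (SE 0.05 on the log2 scale, edgeR adjusted p = 0.000557). Rfc3 was at 13.3 and 12.7 CPM against 15.8 and 15.3 CPM, 1.19-fold higher (SE 0.08 on the log2 scale, edgeR adjusted p = 0.0106), with an edgeR adjusted p of 0.0935 without control replicate 2 and 0.0545 without knockdown replicate 1. Rfc4 and Rfc5 had the same fitted log2 change of 0.20 but lower counts, and edgeR adjusted p-values of 0.119 and 0.22. The large subunit gene Rfc1 was the exception, at 98.1 and 97.9 CPM against 101 and 96.8 CPM, with a log2 change of 0.01 and a 95% interval of -0.06 to 0.09. Exons of Rfc2, Rfc4 and Rfc5 overlap those of another tested gene on the opposite strand, and counting without strand does not separate such reads.

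Genes for the helicase subunits of the licensing step were called in both directions, and the difference between them was not tested. Mcm2 to Mcm7 form a ring with 1 copy of each. Of these 6 genes 2 rose (33.3%) and 1 fell (16.7%), against 23.5% and 23.3% of all genes, leaving 3 without a call. Their summed level was 218 and 206 CPM in the controls and 233 and 221 CPM in the knockdown libraries. Mcm4 was at 46.1 and 45.5 CPM against 55.3 and 53.7 CPM, a rise of 1.19-fold (log2 change 0.25, SE 0.05, edgeR adjusted p = 4.15e-05). Mcm3 was at 24.6 and 24.1 CPM against 32.0 and 27.6 CPM, a rise of 1.23-fold (log2 change 0.29, SE 0.07, edgeR adjusted p = 0.000506). Both genes were higher in each knockdown library than in each control, and the adjusted p of Mcm3 was 0.0543 without knockdown replicate 1. Mcm6 ran the other way, at 54.5 and 53.4 CPM against 48.7 and 49.0 CPM, and fell 1.10-fold (log2 change -0.14, SE 0.05, edgeR adjusted p = 0.0122). DESeq2 gave Mcm6 an adjusted p of 0.0526, and edgeR gave 0.0942 with control replicate 1 left out and 0.0595 with knockdown replicate 1 left out.

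The other 3 ring subunits stayed within the spread of their libraries or close to it. Mcm2 was at 37.9 and 31.2 CPM against 37.8 and 36.7 CPM, so that control replicate 1 matched the knockdown libraries (log2 change 0.11, 95% interval -0.03 to 0.25, edgeR adjusted p = 0.207), and without that library its adjusted p was 0.0133. Mcm5 was at 34.0 and 31.4 CPM against 38.7 and 33.4 CPM, and the groups overlapped (log2 change 0.14, edgeR adjusted p = 0.0698). Mcm7 was at 21.1 and 20.7 CPM against 20.4 and 20.7 CPM (log2 change -0.02, 95% interval -0.16 to 0.12, edgeR adjusted p = 0.799).

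**Figure D3:**
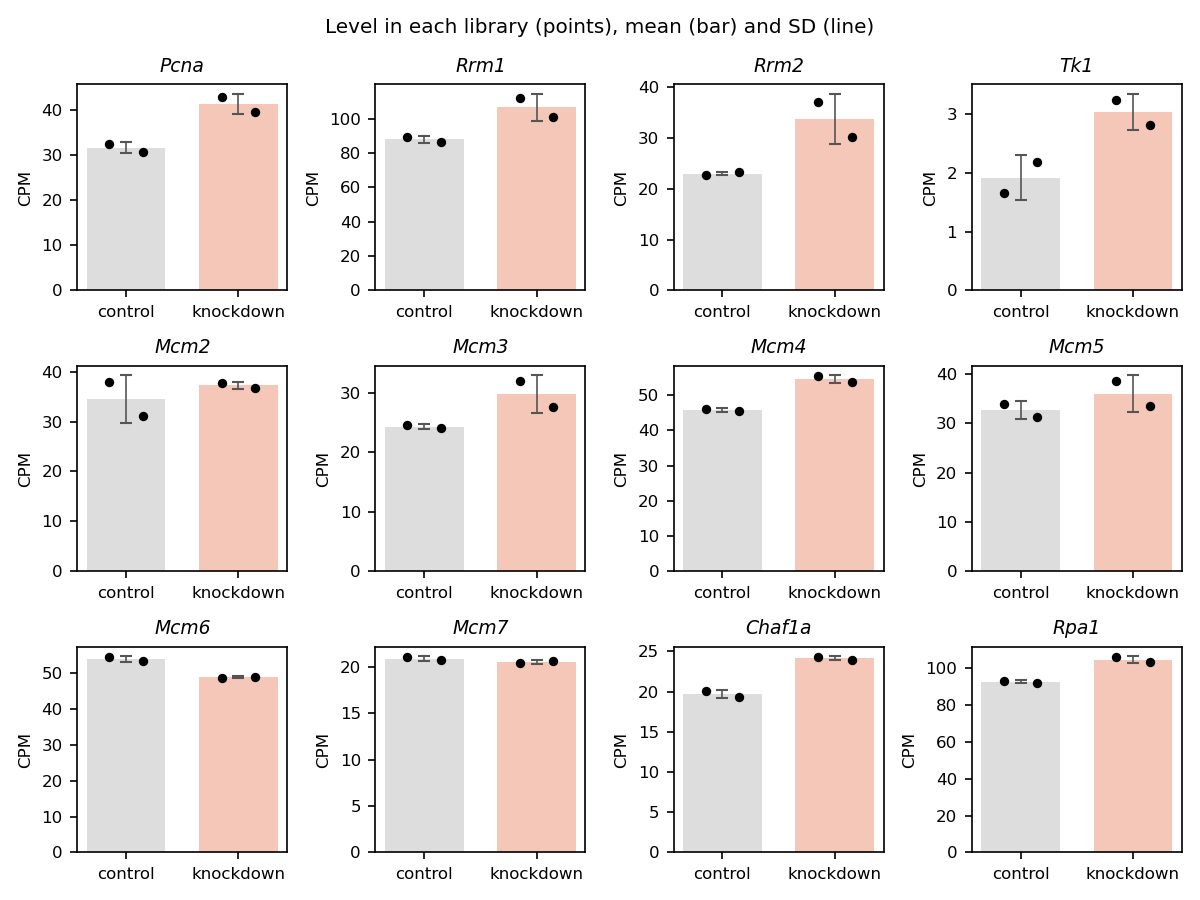
Level in CPM (vertical axes, from 0) of 12 members in the control and knockdown libraries; points are libraries, bars the mean and lines the SD of 2. Mcm6 is lower in both knockdown libraries, Mcm2, Mcm5 and Mcm7 sit close to their controls, and Rrm2 reads 37.2 and 30.2 CPM in the knockdown libraries.

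Of the factors that load the ring, Orc6 and Cdc6 were called. Orc6, a subunit of the origin recognition complex, was at 21.9 and 22.9 CPM against 25.2 and 25.5 CPM, a rise of 1.13-fold (SE 0.07 on the log2 scale, edgeR adjusted p = 0.0237). Cdc6, the loading ATPase, was at 3.80 and 3.96 CPM against 5.02 and 4.91 CPM, a rise of 1.28-fold just inside the threshold (SE 0.15 on the log2 scale, edgeR adjusted p = 0.0493). Neither kept an adjusted p under 0.05 when any 1 library was left out, with values of 0.0522 to 0.167 for Orc6 and 0.107 to 0.167 for Cdc6. Orc1, which recognises origins, was at 1.71 to 1.95 CPM in the 4 libraries with a log2 change of -0.05. Orc2 was at 62.4 and 59.3 CPM against 58.1 and 57.2 CPM (log2 change -0.08, edgeR adjusted p = 0.157). Cdt1, the partner of Cdc6 in loading, ranged from 5.89 to 7.51 CPM, both in controls, so its groups overlapped.

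Genes that activate the loaded helicase all had positive fitted changes, and 3 of 6 were called. Gins1, a subunit of the GINS complex, was at 3.05 and 3.55 CPM against 4.67 and 4.17 CPM, a rise of 1.34-fold (SE 0.16 on the log2 scale, edgeR adjusted p = 0.0317). Gins4 of the same complex was at 24.5 and 26.8 CPM against 30.5 and 28.0 CPM, a rise of 1.14-fold (SE 0.06 on the log2 scale, edgeR adjusted p = 0.0165). Mcm10, a factor needed to start the fork, was at 6.73 and 6.29 CPM against 8.24 and 8.03 CPM, a rise of 1.25-fold (SE 0.12 on the log2 scale, edgeR adjusted p = 0.022). None of the 3 passed with DESeq2, where the adjusted p-values were 0.113, 0.0749 and 0.0886. Without control replicate 1 their edgeR adjusted p-values were 0.219, 0.252 and 0.0524, and without knockdown replicate 1 they were 0.184, 0.203 and 0.0828. Without control replicate 2 those of Gins1 and Mcm10 were 0.0516 and 0.129. Cdc45, Gins2 and Gins3 were not called, with log2 changes of 0.23, 0.24 and 0.07. For Cdc45 and Gins2 the groups did not overlap, and for Gins3 they did.

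Among polymerase and primase genes, 4 of 6 rose (66.7%, against 23.5% of all genes), and subunits of the same enzyme differed. Polymerase alpha and primase start each new strand with a short primer. Pola2, the regulatory subunit of polymerase alpha, was at 14.8 and 13.3 CPM against 19.3 and 15.6 CPM, a rise of 1.24-fold (SE 0.09 on the log2 scale, edgeR adjusted p = 0.00555). Without knockdown replicate 1 its adjusted p was 0.241, and without control replicate 2 it was 0.176. Pola1, the catalytic subunit, was at 24.7 and 24.8 CPM against 23.8 and 21.2 CPM and was not called (log2 change -0.14, edgeR adjusted p = 0.0956). The primase pair split likewise. Prim2 was at 18.04 and 16.8 CPM against 18.8 and 20.6 CPM, a rise of 1.13-fold (SE 0.07 on the log2 scale, edgeR adjusted p = 0.047), while Prim1, the catalytic subunit, ranged from 10.4 to 12.4 CPM with overlapping groups. For Prim2 the adjusted p was 0.0732 and 0.301 with control replicates 1 and 2 left out, and 0.347 with knockdown replicate 2 left out. The difference between subunits was not tested.

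Pold1 and Pole encode the catalytic subunits of the polymerases that copy the lagging and leading strands. Pold1 was at 14.0 and 15.2 CPM against 17.1 and 16.5 CPM, a rise of 1.15-fold (SE 0.08 on the log2 scale, edgeR adjusted p = 0.0354). Pole was at 13.0 and 11.9 CPM against 15.01 and 14.4 CPM, a rise of 1.18-fold (SE 0.09 on the log2 scale, edgeR adjusted p = 0.0226). Both genes were higher in each knockdown library than in each control. Fen1 and Lig1, which trim and seal the fragments of the lagging strand, were also called. Fen1 was at 18.4 and 17.4 CPM against 20.8 and 20.0 CPM, a rise of 1.14-fold (SE 0.07 on the log2 scale, edgeR adjusted p = 0.0325). Lig1 was at 21.5 and 21.7 CPM against 26.4 and 23.6 CPM, a rise of 1.16-fold (SE 0.07 on the log2 scale, edgeR adjusted p = 0.0105). With DESeq2 the adjusted p of Pold1, Pole, Fen1 and Lig1 was 0.13, 0.0938, 0.121 and 0.0552. Without knockdown replicate 1 the edgeR adjusted p-values of these 4 genes were 0.146, 0.109, 0.153 and 0.217. Without control replicate 2 they were 0.0506, 0.192, 0.197 and 0.0847, and without control replicate 1 those of Pold1, Fen1 and Lig1 were 0.243, 0.0595 and 0.101.

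Replication protein A coats single-stranded DNA at the fork, and 1 of its 3 subunit genes was called higher (33.3%, against 23.5% of all genes). Rpa1, the large subunit, was at 93.2 and 92.1 CPM against 106 and 103 CPM, a rise of 1.13-fold (log2 change 0.18, SE 0.04, edgeR adjusted p = 0.000138). The change was small, but the replicates were close and the groups did not overlap. Rpa2 had a log2 change of 0.14 (edgeR adjusted p = 0.0869) and Rpa3 a log2 change of 0.06 with overlapping groups.

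Chromatin assembly factor 1 places new histones behind the fork, and both of its large subunit genes in the list rose. Chaf1a was at 20.0 and 19.3 CPM against 24.3 and 24.0 CPM, a rise of 1.23-fold (log2 change 0.29, SE 0.07, edgeR adjusted p = 0.000502). Chaf1b was at 4.80 and 4.82 CPM against 6.14 and 6.17 CPM, a rise of 1.28-fold (log2 change 0.36, SE 0.13, edgeR adjusted p = 0.0286). The adjusted p of Chaf1b was between 0.075 and 0.0993 when any 1 library was left out. In the GENCODE M21 annotation the exons of Chaf1a overlap those of Ubxn6 on the opposite strand, over 4648 of 8854 exon bases (52.5%). Uhrf1, which copies DNA methylation onto new strands by recruiting the methyltransferase, was at 16.9 and 16.0 CPM against 17.2 and 17.0 CPM and was not called (log2 change 0.06, edgeR adjusted p = 0.557).

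Of the 4 regulators of S phase entry, 1 rose (25.0%, near the share of all genes) and 3 were not called. Ccne2, a cyclin E gene, was at 3.19 and 2.89 CPM against 4.65 and 3.62 CPM, a rise of 1.36-fold (log2 change 0.44, SE 0.17, edgeR adjusted p = 0.0331). DESeq2 gave Ccne2 an adjusted p of 0.117, and edgeR gave 0.376 with knockdown replicate 1 left out and 0.0957 and 0.204 with control replicates 1 and 2 left out. The related Ccne1 was at 12.6 and 13.3 CPM against 12.5 and 10.5 CPM, below both controls but not called (log2 change -0.17, 95% interval -0.36 to 0.02, edgeR adjusted p = 0.146). E2f1, an activating E2F, was at 8.68 and 8.69 CPM against 9.71 and 8.09 CPM, on either side of the controls (log2 change 0.03, edgeR adjusted p = 0.823). E2f2 was at 3.86 and 3.55 CPM against 5.06 and 3.70 CPM (log2 change 0.24, edgeR adjusted p = 0.247). In all 4 genes knockdown replicate 1 was the higher knockdown library.

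Levels of members were compared per kilobase of exon, with exon lengths from GENCODE M21, which may differ from those of the counted annotation. The length joins the exons of all annotated transcripts of a gene, so it can exceed that of the transcript expressed here. It was 1349 bases for Gins4, 5198 bases for Tk1 and 11012 bases for Rrm1, and the order of members depends on it. On this scale, averaged over both groups, Gins4 was the highest member at 20.3 CPM per kilobase, followed by Rpa1 at 17.7, Rfc1 at 16.4, Orc2 at 15.4 and Pcna at 15.2 CPM per kilobase. Tk1 was the lowest at 0.476 CPM per kilobase, next to Orc1 at 0.525 CPM per kilobase. These levels are a description and were not tested.

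Genes next to the members in the cell cycle were read from lists beside the same fit. Of 45 tested replication factors outside the members, 8 rose (17.8%) and 2 fell (4.44%), against 23.5% and 23.3% of all genes, with a median log2 change of 0.06. The number that rose was 4 without control replicate 2, without knockdown replicate 1 or with DESeq2, 5 without control replicate 1 and 11 without knockdown replicate 2. The number that fell was 0 without control replicate 1, without knockdown replicate 2 or with DESeq2, and 1 without control replicate 2. Top1, the topoisomerase that relaxes DNA ahead of the fork, rose 1.14-fold from 291 and 281 CPM to 328 and 327 CPM (edgeR adjusted p = 1.07e-06). The histone chaperone genes Rbbp7 and Rbbp4 rose 1.11-fold and 1.08-fold, the checkpoint scaffold gene Topbp1 1.12-fold and Mtbp 1.199-fold. Of 30 further nucleotide synthesis genes, 11 rose (36.7%) and 4 fell (13.3%), and without control replicate 2 the counts were 7 and 1. Umps, of pyrimidine synthesis, rose 1.38-fold, Paics and Atic, of purine synthesis, rose 1.18-fold and 1.16-fold, and Samhd1, which degrades deoxynucleotides, rose 1.12-fold. Ppat, the first enzyme of purine synthesis, fell 1.21-fold from 35.2 and 35.3 CPM to 29.1 and 29.3 CPM (edgeR adjusted p = 0.000178).

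Of 36 mitosis genes, 15 rose (41.7%, against 23.5% of all genes) and 0 fell, with a median log2 change of 0.21. As for the members, the count depended on single libraries. It was 6 (16.7%) without knockdown replicate 1, against 20.0% of all genes, and 23 without knockdown replicate 2. Leaving out control replicate 1 or 2 gave 10 or 6. DESeq2 called 8 of them higher, and the median log2 change was 0.12 without knockdown replicate 1. Nusap1, Prc1, Cdk1, Nuf2 and Kif23, which act on the spindle, in cell division or, for Cdk1, as the mitotic kinase, rose 1.31-fold, 1.26-fold, 1.28-fold, 1.39-fold and 1.42-fold. The proliferation markers Mki67 and Top2a were not called. Mki67 was at 78.1 and 73.4 CPM against 98.3 and 80.5 CPM (edgeR adjusted p = 0.23), and Top2a at 87.7 and 81.1 CPM against 107 and 89.6 CPM (edgeR adjusted p = 0.179). Knockdown replicate 1 was the higher library for both, as it was for 20 of the 23 members called higher.

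Of 35 G1/S regulators outside the members, 10 rose (28.6%) and 7 fell (20.0%), shares near the 23.5% and 23.3% of all genes. Without control replicate 2 the counts were 6 and 4, and without knockdown replicate 1 they were 8 and 4. Cdkn1a, which encodes the cell cycle inhibitor p21, rose from 90.7 and 87.1 CPM to 193 and 195 CPM, 2.18-fold (edgeR adjusted p = 8.36e-24). Ccnd1, the cyclin D1 gene that drives G1, rose in the same libraries from 73.2 and 76.8 CPM to 128 and 132 CPM, 1.73-fold (edgeR adjusted p = 2.4e-18). Rb1, the retinoblastoma repressor of E2F, rose 1.32-fold and E2f5 rose 1.302-fold, while the cyclin D3 gene Ccnd3 fell 1.31-fold. Cdk2, the kinase of cyclin E, was at 28.9 and 30.3 CPM against 31.6 and 29.6 CPM (edgeR adjusted p = 0.52). Of 22 p53 target genes, 13 rose (59.1%, against 23.5% of all genes), 1 fell (4.55%) and 8 were not called, with a median log2 change of 0.23. Cdkn1a rose the most, ahead of Ccng1 at 1.70-fold, Eda2r at 1.68-fold, Phlda3 at 1.65-fold and Aen at 1.52-fold. Btg2 fell, from 108 and 115 CPM to 91.7 and 92.0 CPM. For Mdm2 the groups overlapped, at 79.4 and 73.0 CPM against 71.7 and 75.1 CPM. The summed level of the 22 genes in the knockdown libraries was close between replicates, at 1753 and 1774 CPM against 1335 and 1293 CPM in the controls.

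**Figure D4:**
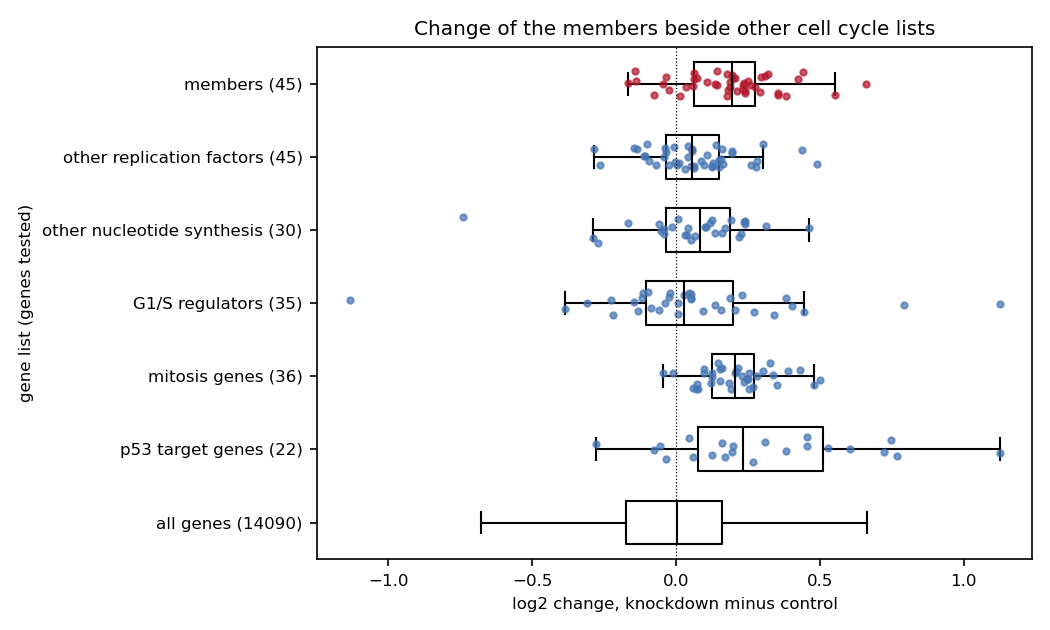
Fitted log2 change, knockdown minus control (horizontal axis), for each gene (points) of the members and of 5 other lists, with boxes for the quartiles and median and whiskers to 1.5 times the box; all genes tested are drawn as a box without points. Members and mitosis genes have medians of 0.20 and 0.21, the other replication factors 0.06, and all genes 0.0020.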

How the data were processed

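Polyadenylated RNA was sequenced from both ends in 2 control and 2 knockdown libraries (100 ng of total RNA each, kit without strand marking). The authors deposited raw read counts per gene, made with HTSeq 0.6.1 and not normalized. Besides HTSeq, build mm9, DESeq, Cufflinks, SAMtools 0.1.18, Bowtie 0.12.7 and TopHat 1.3.3 stand in the submitters' processing notes. Which annotation was counted, and whether by strand, is not given in the sources used here, so reads of overlapping or antisense genes cannot be told apart (10 members overlap exons of another tested gene in GENCODE M21). Rows for reads outside genes or not assigned to a gene, 31.8% to 33.5% of listed reads, were left out. A further 2 deposited tables hold the authors' own fold changes, p-values and enrichment terms and were not used.

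Counts were filtered with filterByExpr (minimum count 10, minimum total 15), scaled by TMM and tested with edgeR 4.0.16 (R 4.3.3) by robust quasi-likelihood, knockdown against control, with no covariate, and p-values were adjusted over all 14090 genes by Benjamini-Hochberg. A call is an adjusted p under 0.05. Standard errors follow from the fold change and its F statistic. CPM use TMM-scaled library sizes. The p-values rest on the spread between the 2 libraries of a group, with each gene's spread estimated in part from all genes tested. The common coefficient of variation between replicates, beyond counting noise, was 2.95%. Alternatives were RLE scaling, no scaling factor, no filter, a filter at a mean of 1 CPM, DESeq2 1.42.0, a replicate block, an adjusted p under 0.01 and leaving out each library. Values per library were given for called members (at most 5 per role), Mcm2 to Mcm7 and the cyclin E and E2f genes, and 5 called genes at most per other list. Members, lists and this rule were chosen with earlier results of these data known, and the promoter words after the counts had been seen. The symbols Ticrr, Supt16 and Map2 of the other lists were not found in the table. Sums of astrocyte and NSC genes without Gfap and Vim were added after the values had been seen.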

Additional observations from a re-analysis of the deposited data

Results flagged for a closer look

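Reads that aligned to more than 1 place, which no comparison here uses, took a larger share of the listed reads in each knockdown library than in each control. The share was 11.2% ± 0.0698 for the knockdown and 10.8% ± 0.131 for the control (SD, n = 2). Its origin was not tested.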

How the results depend on the processing

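The number of members called higher was 23 with all libraries, and with 1 library left out it ran from 9 to 21, while the number called lower, 1, ran from 0 to 2. It was 15 higher and 3 lower with no scaling factor, 10 and 0 with DESeq2, and 10 and 0 at an adjusted p under 0.01, which by construction calls fewer. At that threshold 10 of 45 members and 2561 of 14090 genes tested were called higher, in place of 23 and 3309. No other alternative moved the members' counts by over 1.5 times, and their median log2 change ran from 0.16 to 0.24 over all alternatives. Leaving out a library leaves an arm with 1 sample, which is then assumed to vary like the other group.

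Of 450 member values under the alternatives, 357 kept their direction and side of the threshold, 70 lost a call, 10 gained one and 13, in 9 members, changed sign. None of the 13 was called. With no scaling factor Rfc1 went to -0.024 and E2f1 to -0.0021. With 1 library left out, the log2 changes ran from -0.12 to 0.034 for Orc1, -0.10 to 0.25 for Cdt1, -0.024 to 0.26 for Mcm2, -0.012 to 0.15 for Gins3, -0.15 to 0.092 for Prim1, -0.018 to 0.043 for Rfc1, -0.059 to 0.17 for Rpa3, -0.10 to 0.16 for E2f1 and -0.0041 to 0.45 for E2f2. The median of the endothelial and mural list went to 0.12 with no filter on low counts, when more of its sparse genes were tested, and no microglia gene passed the filter at a mean of 1 CPM. The calls gained were in Mcm5 (no filter, replicate block, without knockdown replicate 2), Pola1 (no scaling factor, without knockdown replicate 1), Orc2 (no scaling factor), Mcm2 (without control replicate 1), Cdc45 and Ccne1 (without knockdown replicate 1) and E2f2 (without knockdown replicate 2).

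The replicate numbers of the groups share only a number in the labels, and the deviations of libraries with the same number had a Pearson's r of 0.054 across genes. With a replicate block 24 members were called higher and 1 lower. Depth limits the least abundant members, Orc1 and Tk1, whose standard errors on the log2 scale were 0.23 and 0.21.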
